A study of Xenopus laevis with 8 samples.

Results

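The vacuolar proton pump (V-ATPase) of Xenopus laevis animal cap explants was followed through 37 gene IDs of the 51017 in the count tables. They are the IDs whose symbol in the authors' table, split at each '_', has a portion that starts with atp6v0, atp6v1 or atp6ap. Of these, 20 encode subunits of the V1 sector, 11 encode subunits of the V0 sector and 6 encode accessory proteins. Because the frog is allotetraploid, most genes exist as an L and an S copy (homeologs), and the 37 IDs stand for 24 gene names, 13 of which are listed with both copies. The libraries came from wild-type, untreated (control) explants labelled as epidermis, which were cut at stage 8, left to heal in saline and collected at stage 9 or at stage 10.5, stage 11.5 or stage 12.5. Each stage had 1 library with the letter A and 1 with the letter B. The labels do not say whether the letters stand for separate clutches or how many explants a library pools, so p-values measure only the spread between these libraries.

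The V-ATPase moves protons across membranes. Its V1 sector on the cytoplasmic side hydrolyses ATP and turns a rotor, which drives a ring of proteolipids in the membrane-bound V0 sector. The pump acidifies endosomes, lysosomes and secretory vesicles in every cell, and acid-secreting cells such as the intercalated cells of the mammalian kidney also place it in the plasma membrane. In mammals such cells use particular forms of several subunits, among them B1, C2, G3, a4 and d2, while B2, C1, G1, a1 and d1 are widely expressed. In the frog embryo the epidermal ionocytes carry the pump and are specified by the transcription factor Foxi1. The 37 IDs were grouped by the mammalian roles into 25 widely expressed genes, 8 ionocyte forms and 4 other restricted forms (atp6v1g2 and atp6v0e2, the brain forms of mammals, and atp6ap1l).

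Total counts lay between 33170889 and 45511790 per library, and the V-ATPase genes together took between 0.125% and 0.172% of them. Levels are CPM, that is counts per 1000000 after library sizes were multiplied by edgeR's TMM factors, with pairs of values in the order A, B. They are not corrected for transcript length, so a difference in level between genes is not read as a difference in amount. Ratios, sums and shares over several genes serve to follow change across stages. The mean CPM also served to choose 1 widely expressed gene per sector for description. A count of 3, used as the floor of detection, corresponds to between 0.0604 and 0.0980 CPM. A filter on low counts left 33 of the 37 IDs among the 28490 genes tested. The other 4 were close to 0 throughout: atp6v1c2.S, atp6v1g3.S, atp6v0e2.S and atp6ap1l.L had at most 10, 6, 10 and 12 counts in any library. The study's reads carried no strand, so reads from a gene and an overlapping antisense gene cannot be told apart, and reads shared by an L and an S copy may have been split between them.

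The epidermal cell types were followed through the summed CPM of lists of marker genes. The 6 IDs of the ionocyte transcription factors foxi1, dmrt2 and ubp1 summed to 16.9 and 23.4 CPM at stage 9, then 114 and 99.8 at stage 10.5, then 154 and 199 at stage 11.5 and finally 499 and 293 at stage 12.5, and none of the 6 was at 0 in any library. The sum over the 7 IDs of ionocyte transport partners fell, from 83.9 and 116 CPM at stage 9 to 27.6 and 31.0 at stage 10.5, with 24.8 and 29.5 left by stage 12.5. This sum is weighted to the IDs with the most counts. As single genes, 3 of the 7 rose and 2 fell from stage 9 to 12.5 by the test given below (31.9% higher and 28.9% lower over all genes). Their median log2 fold change was 2.8, against 0.13 over all genes. Of the 7 IDs, 3 were at 0 counts in stage 9 A and 1 in stage 9 B. An ID near 0 at stage 9 could pass the filter only through later libraries. These counts and this median therefore describe the list and lend no support. The 12 IDs of multiciliated cell markers went from 101 and 121 CPM at stage 9 to 1255 and 696 at stage 12.5, and the 11 IDs of secretory cell markers from 43.3 and 54.8 to 1229 and 1100. The 10 IDs of mesoderm and endoderm markers summed to 141 and 158 CPM at stage 9, then 77.8 and 199 at stage 10.5, then 64.3 and 95.6 at stage 11.5 and finally 23.6 and 128 at stage 12.5, so that B was above A at every stage. Since these are bulk samples, a change in the number of cells of a type and a change in RNA per cell cannot be told apart, and the share of each cell type in the results below was not tested.

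Between stage 9 (late blastula) and stage 10.5 (early gastrula), 14 V-ATPase genes rose and 2 fell among the 33 tested. The quasi-likelihood test of edgeR was used, and an adjusted p under 0.05 (Benjamini-Hochberg, over all genes tested) made a call. Of all genes tested, 48.3% were called at this step, with 25.0% higher and 23.3% lower. The 16 called V-ATPase genes are a share close to that background. The median log2 fold change was 0.32 over the V-ATPase genes and 0.11 over all genes. With the replicate letter as a block, 17 rose and 2 fell (58.4% of all genes called), atp6v1a.S, atp6v1e1.S and atp6v1c1.L being added to those that rose. Without stage 9 replicate B, or without stage 10.5 replicate A, fewer V-ATPase genes were called, and fewer of all genes too. The median log2 fold changes in these fits were 0.34 and 0.38 over the V-ATPase genes, against 0.17 and 0.09 over all genes. In the authors' deposited table for this step, 9 of the genes were higher and 2 lower out of 36 with an adjusted p, against 44.3% of the genes listed there.

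No V-ATPase gene was called between stages 10.5 and 11.5, and none between stages 11.5 and 12.5. The test called 0.00% of all genes at either step. At an unadjusted p under 0.05, 1 and 6 of the 33 V-ATPase genes passed at these steps, beside 2131 and 4246 of all 28490 genes tested. DESeq2 called 0 and 3, against 0.856% and 5.44% of all genes. With the block, 0 and 3 were called, against 0.0737% and 4.58% of all genes. The 3 were atp6v1f.S and atp6ap2.L, which rose, and atp6v0a1.S, which fell. The authors' deposited table for the later step held 2 calls, both higher, namely atp6v1f.S and atp6ap1.1.S, against 3.51% of the genes listed there.

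Over the whole period, from stage 9 to stage 12.5, 14 V-ATPase genes rose, 5 fell and 14 did not pass the test. The corresponding background was 60.8% of all genes, with 31.9% higher and 28.9% lower. Of the 25 widely expressed genes 8 rose and 5 fell, and of the 8 ionocyte forms 5 rose and 0 fell. An ionocyte form near 0 at stage 9 could pass the filter only through later libraries, so the count over these forms describes them and lends no support. The same holds for atp6ap1.1.S, grouped as widely expressed (0 and 17 counts at stage 9), and for the brain form atp6v1g2.L (5 and 6 counts). This limit applies to every count and call given here that includes these genes. On library sizes without TMM factors, 12 rose and 7 fell, against 59.9% of all genes called, 26.4% higher and 33.5% lower. That scaling moved the median log2 fold change of all genes from 0.13 to -0.19 and that of the V-ATPase genes from 0.39 to 0.06. With the block 16 rose and 5 fell, against 69.1% of all genes called, 36.3% higher and 32.8% lower. Any difference among the 4 stages was called for 15 of the genes (background 52.5%). The block added atp6ap2.S, atp6v0c.L, atp6v0d2.S, atp6v1c1.S, atp6v1d.S and atp6v1g2.S to them, 21 in all (background 64.5%).

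**Figure D1:**
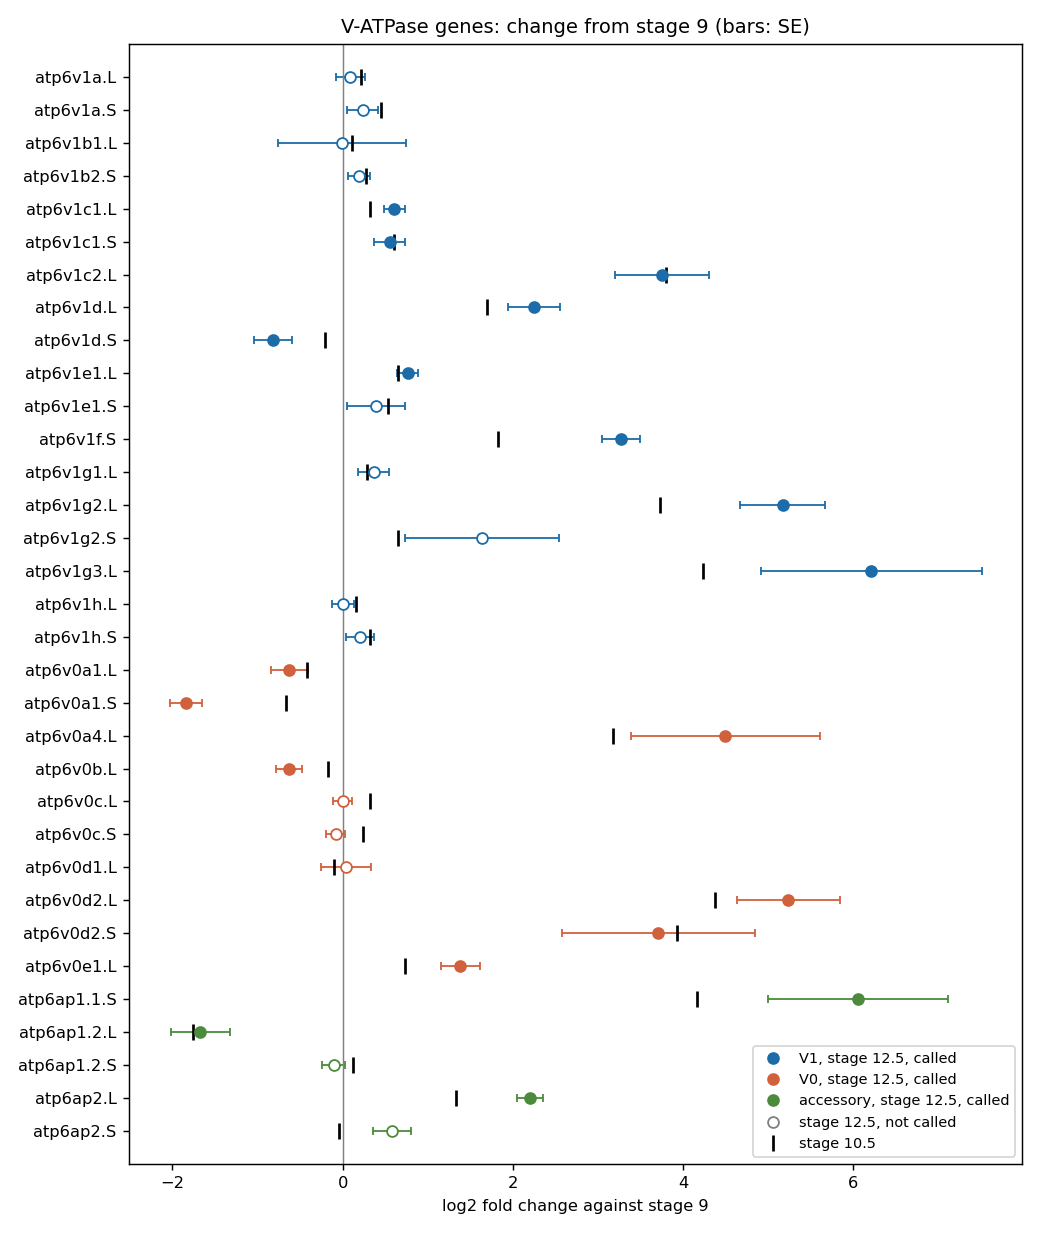
Log2 fold change against stage 9 of the V-ATPase genes tested, with points for stage 12.5 (bars are the SE of the fit, filled points are called at adjusted p under 0.05) and black ticks for stage 10.5, coloured by sector. At the right lie 5 ionocyte forms with atp6ap1.1.S and the brain form atp6v1g2.L, while the ionocyte form atp6v1b1.L lies at -0.01. Gene atp6v0a1.S lies farthest to the left at -1.84. Of the 25 widely expressed genes 8 are called higher, 5 lower and 12 not, beside 31.9% higher and 28.9% lower over all genes.

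In the V1 sector, the part of the pump that hydrolyses ATP, 8 of the 18 tested genes rose from stage 9 to stage 12.5 and 1 fell, beside 31.9% higher and 28.9% lower over all genes. The catalytic A subunit was not among them. Its L copy atp6v1a.L had 27.9 and 27.6 CPM at stage 9 and 30.6 and 28.6 CPM at stage 12.5, a log2 fold change of 0.09 ± 0.17 (SE, adjusted p = 0.671). The S copy atp6v1a.S went from 36.3 and 27.1 to 40.3 and 34.3 CPM with overlapping groups (log2 fold change 0.24 ± 0.18, adjusted p = 0.289). The regulatory H subunit was also close to its starting level, with log2 fold changes of 0.00 ± 0.13 for atp6v1h.L and 0.20 ± 0.16 for atp6v1h.S. The gene chosen by its mean CPM over the 8 libraries was atp6v1b2.S, the partner of A in the hexameric head. It had 103 and 110 CPM at stage 9, then 119 and 137 at stage 10.5, then 132 and 145 at stage 11.5 and finally 121 and 121 at stage 12.5, and was not called (log2 fold change 0.19 ± 0.13, adjusted p = 0.232).

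The largest rise among the widely expressed V1 genes was that of the F subunit, 1 of the proteins of the rotor shaft. The F subunit gene atp6v1f.S had 6.69 and 7.47 CPM at stage 9, then 23.6 and 26.7 at stage 10.5, then 30.7 and 43.7 at stage 11.5 and finally 73.2 and 63.6 at stage 12.5. Every library of a stage was above both libraries of the stage before. The mean thus went from 7.08 ± 0.55 to 68.4 ± 6.73 CPM (SD, n = 2), which is 9.66-fold (log2 fold change 3.27 ± 0.22, adjusted p = 2.15e-05). The rise was called at the first step (log2 fold change 1.83 ± 0.21, adjusted p = 0.000397) and, with the replicate block, at the last (0.90 ± 0.18, adjusted p = 0.0322). The D subunit, the other shaft protein, changed in opposite directions in its copies. Copy atp6v1d.L went from 2.17 and 2.11 CPM at stage 9 to 12.4 and 7.99 at stage 12.5 (log2 fold change 2.25 ± 0.31, adjusted p = 0.00053), while atp6v1d.S fell from 12.5 and 14.5 CPM to 6.86 and 8.46 (log2 fold change -0.82 ± 0.22, adjusted p = 0.014), the only V1 gene called lower. The call on atp6v1d.S was lost in 2 of the 8 fits that left out a library.

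Among the widely expressed genes of the peripheral stalk and the C subunit, atp6v1e1.L, atp6v1c1.L and atp6v1c1.S rose by smaller amounts. The E subunit gene atp6v1e1.L had 75.3 and 78.0 CPM at stage 9, then 124 and 117 at stage 10.5, then 135 and 129 at stage 11.5 and finally 139 and 122 at stage 12.5, so nearly all of the difference lay between stages 9 and 10.5 (log2 fold change 0.65 ± 0.12, adjusted p = 0.00403). Its S copy atp6v1e1.S had 13.5 and 10.8 CPM at stage 9 and 20.7 and 11.3 CPM at stage 12.5, with B below A at every stage, and was not called. The widely expressed C subunit, which is released when V1 detaches from V0, rose in both copies. Gene atp6v1c1.L went from 52.3 and 57.8 to 79.8 and 88.1 CPM (log2 fold change 0.61 ± 0.13, adjusted p = 0.00435), and atp6v1c1.S from 29.8 and 27.3 to 44.7 and 38.9 CPM (0.55 ± 0.18, adjusted p = 0.0293). Both C1 calls were lost on library sizes without TMM factors. The call on atp6v1c1.S was also lost in 3 of the 8 fits that left out a library. The stalk gene atp6v1g1.L had 26.1 and 25.6 CPM at stage 9 and 28.4 and 38.1 CPM at stage 12.5 and was not called (log2 fold change 0.36 ± 0.19, adjusted p = 0.125). RefSeq gives atp6v1g1.L as a synonym of atp6v1g1.S and lists another gene as atp6v1g1.L, so which homeolog the authors' atp6v1g1.L stands for is uncertain.

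**Figure D2:**
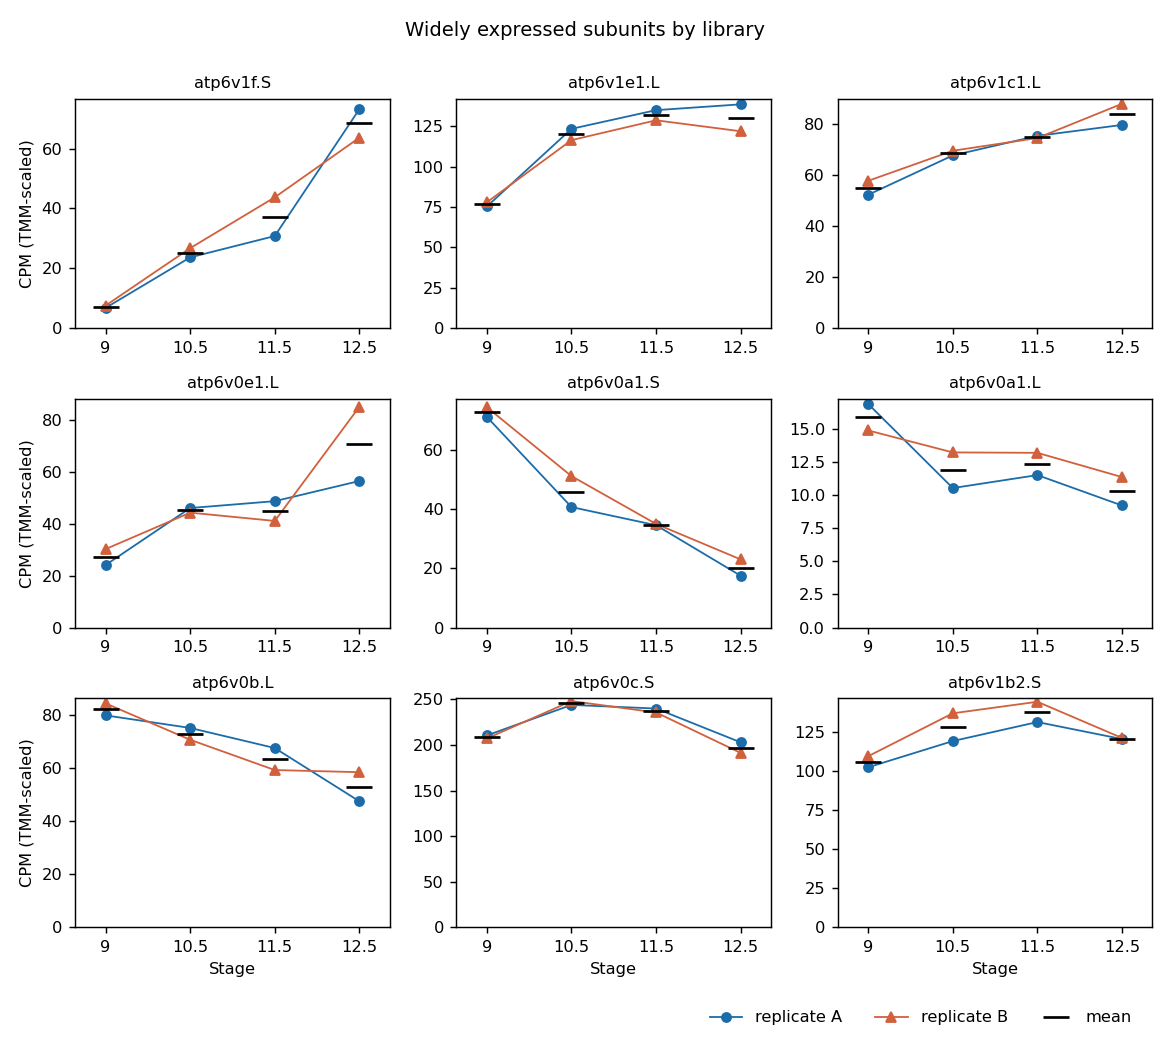
CPM (TMM-scaled) of 9 widely expressed subunit genes at the 4 stages, with circles for library A, triangles for library B and bars for the mean, each panel on its own axis from 0. Panel atp6v1f.S climbs from 6.69 and 7.47 to 73.2 and 63.6 CPM, atp6v0a1.S declines from 71.2 and 74.4 to 17.5 and 23.0, and atp6v0c.S ends near where it began on this scaling (lower without TMM factors, -0.40 on the log2 scale).

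The V0 sector, which forms the proton path in the membrane, had 4 genes that rose, 3 that fell and 3 that did not pass among 10 tested, close to the shares of 31.9% higher and 28.9% lower over all genes. Of the proteolipids of the rotor ring, the c subunit was not called from stage 9 to 12.5 in either copy on TMM-scaled sizes, and c'' fell in the copy tested here. On library sizes without TMM factors both c copies were called lower, atp6v0c.L at -0.32 (adjusted p = 0.0285) and atp6v0c.S at -0.40 (adjusted p = 0.0135). Gene atp6v0c.S, chosen by its mean CPM, had 211 and 207 CPM at stage 9, then 244 and 248 at stage 10.5, then 240 and 236 at stage 11.5 and finally 203 and 191 at stage 12.5 (log2 fold change from stage 9 to 12.5 of -0.08 ± 0.11, adjusted p = 0.529). Its L copy atp6v0c.L followed the same course, with 189 and 192 CPM at stage 9, then 242 and 233 at stage 10.5 and finally 197 and 184 at stage 12.5. The early rise of atp6v0c.L was called at 0.32 ± 0.11 (adjusted p = 0.0461), a call lost in 6 of the 8 fits that left out a library. The c'' proteolipid gene atp6v0b.L declined from 79.9 and 84.4 CPM at stage 9 to 47.5 and 58.5 at stage 12.5 without overlap (log2 fold change -0.63 ± 0.15, adjusted p = 0.00809). Its S copy atp6v0b.S, named through RefSeq as described below, had 60.8 and 69.8 CPM at stage 9. At stage 12.5 it had 49.5 and 66.4 CPM, with overlapping groups (log2 fold change -0.17 ± 0.17, adjusted p = 0.41).

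The a subunit, which channels protons and anchors the pump to particular membranes, declined in its widely expressed a1 form. Gene atp6v0a1.S had 71.2 and 74.4 CPM at stage 9, then 40.7 and 51.2 at stage 10.5, then 34.6 and 35.0 at stage 11.5 and finally 17.5 and 23.0 at stage 12.5. Each stage lay below the one before it in both libraries. From stage 9 to 12.5 the mean fell from 72.8 ± 2.31 to 20.3 ± 3.9 CPM (SD, n = 2), a level 3.59-fold lower (log2 fold change -1.84 ± 0.19, adjusted p = 0.000124), the largest fall among the 33 tested. The decline was called at the first step (log2 fold change -0.66 ± 0.18, adjusted p = 0.0194; lost in 3 of the 8 fits that left out a library) and, with the replicate block, at the last (-0.79 ± 0.15, adjusted p = 0.0282). Copy atp6v0a1.L went from 16.9 and 14.9 CPM to 9.21 and 11.4 (log2 fold change -0.63 ± 0.22, adjusted p = 0.041), but 6 of the 8 fits that left out a library did not call it.

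The a2 and a3 genes followed here were not among the 37 IDs and are listed under LOC symbols in the authors' table. Through the gene number in the symbol, RefSeq (assembly Xenopus_laevis v10.1) names LOC108716527 as atp6v0a2.L, the a2 form that in mammals resides on Golgi and endosomes, and LOC108696325 as tcirg1.L, the a3 form of mammalian lysosomes and osteoclasts. Both fell, and mostly by stage 10.5. The a2 gene atp6v0a2.L had 108 and 114 CPM at stage 9, then 22.2 and 27.1 at stage 10.5, then 18.9 and 22.9 at stage 11.5 and finally 23.4 and 29.2 at stage 12.5 (log2 fold change from stage 9 to 12.5 of -2.08 ± 0.19, adjusted p = 7.19e-05). The a3 gene tcirg1.L had 127 and 130 CPM at stage 9, then 34.5 and 46.6 at stage 10.5, then 29.1 and 36.9 at stage 11.5 and finally 20.2 and 27.5 at stage 12.5 (log2 fold change -2.43 ± 0.23, adjusted p = 8.43e-05). The genes examined for a1 (both copies), a2 and a3 (L copy only) therefore all ended below their stage 9 level, and no library of stage 12.5 overlapped one of stage 9. The same lookup named 3 more V-ATPase genes, of which atp6v0b.S and a second atp6v1g1 gene were not called, while atp6ap1.1.L rose from 0 and 0.04 CPM to 0.56 and 0.66 (log2 fold change 4.69 ± 1.35, adjusted p = 0.018). These levels of atp6ap1.1.L rest on 0 and 2 counts at stage 9 and 17 and 26 at stage 12.5. It could pass the filter only through later libraries, so its call describes it and lends no support.

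The remaining V0 subunits did not follow the a subunit. The small membrane subunit gene atp6v0e1.L had 24.1 and 30.3 CPM at stage 9, then 46.2 and 44.4 at stage 10.5, then 48.8 and 41.2 at stage 11.5 and finally 56.6 and 85.3 at stage 12.5 (log2 fold change from stage 9 to 12.5 of 1.38 ± 0.23, adjusted p = 0.00133). The widely expressed d subunit gene atp6v0d1.L, which couples the rotor shaft to the ring, had 43.7 and 67.3 CPM at stage 9 and 47.1 and 66.7 at stage 12.5. Its libraries differed by letter and not by stage, with B above A at all 4 stages (log2 fold change 0.04 ± 0.29, adjusted p = 0.924).

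Of the 8 ionocyte forms, 5 were near 0 at stage 9 and rose by stage 12.5. Of the others, B1 was not called, and atp6v1c2.S (at most 10 counts) and atp6v1g3.S (at most 6) were too low to test. The d2 gene atp6v0d2.L had 0.19 and 0.08 CPM at stage 9, then 3.84 and 1.86 at stage 10.5, then 3.57 and 3.49 at stage 11.5 and finally 4.21 and 6.10 at stage 12.5. The C2 gene atp6v1c2.L had 0.19 and 0.52 CPM at stage 9, then 6.01 and 4.02 at stage 10.5, then 3.73 and 4.65 at stage 11.5 and finally 5.82 and 3.88 at stage 12.5. The values of atp6v1c2.L at stages 10.5 and 12.5 overlapped, while atp6v0d2.L was below both its stage 12.5 libraries at that stage. The fit gave log2 fold changes from stage 9 to 12.5 of 5.23 ± 0.60 for atp6v0d2.L (adjusted p = 0.000226) and 3.75 ± 0.56 for atp6v1c2.L (adjusted p = 0.000791).

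The a4 and G3 forms had lower counts than atp6v0d2.L and atp6v1c2.L. Their mean CPM was higher at each successive stage, but neither gene was called at a step after stage 10.5. A difference in course from atp6v0d2.L and atp6v1c2.L was not tested. The a4 gene atp6v0a4.L, whose human counterpart is mutated in distal renal tubular acidosis, had 5 and 0 counts at stage 9, then 19 and 17 at stage 10.5, then 23 and 50 at stage 11.5 and finally 34 and 54 at stage 12.5. That corresponds to 1.11 and 1.36 CPM at stage 12.5 (log2 fold change 4.50 ± 1.11, adjusted p = 0.00939). Its call at stage 10.5 (adjusted p = 0.0448) was lost in 7 of the 8 fits that left out a library. The G3 gene atp6v1g3.L had 1 and 0 counts at stage 9, then 12 and 6 at stage 10.5, then 31 and 14 at stage 11.5 and finally 49 and 16 at stage 12.5. Library A was above B at every stage. The ratio of its summed rate at stage 12.5 to that at stage 9 was 90.2, with an exact 95% interval for counting error of 15.6 to 3615, and the fit called it at adjusted p = 0.00437. The S copy of d2, atp6v0d2.S, had 2 and 0 counts at stage 9 and 8 and 14 at stage 12.5, a ratio of 15.3 (exact interval 3.75 to 133.8, adjusted p = 0.0234, lost in 2 of the 8 fits that left out a library). Copy atp6v1g3.S was seen at stage 10.5 (4 and 4 counts) and stage 12.5 (6 and 0) and had none in the other 4 libraries, and was not tested.

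The B1 form, which with a4 is the form most closely tied to acid-secreting cells in mammals, did not show this course. Gene atp6v1b1.L had 1.53 and 0.32 CPM at stage 9, then 1.29 and 0.70 at stage 10.5, then 1.02 and 0.78 at stage 11.5 and finally 1.08 and 0.76 at stage 12.5. Library A was above B at every stage, and the stage 9 libraries spanned the values of all later ones. The log2 fold change from stage 9 to 12.5 was -0.01 ± 0.75 (adjusted p = 0.990), and without stage 9 replicate A it was 1.48, also not called. The stage 9 libraries held 73 and 16 counts, and a change of the gene no larger than this spread between them was not detectable.

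**Figure D3:**
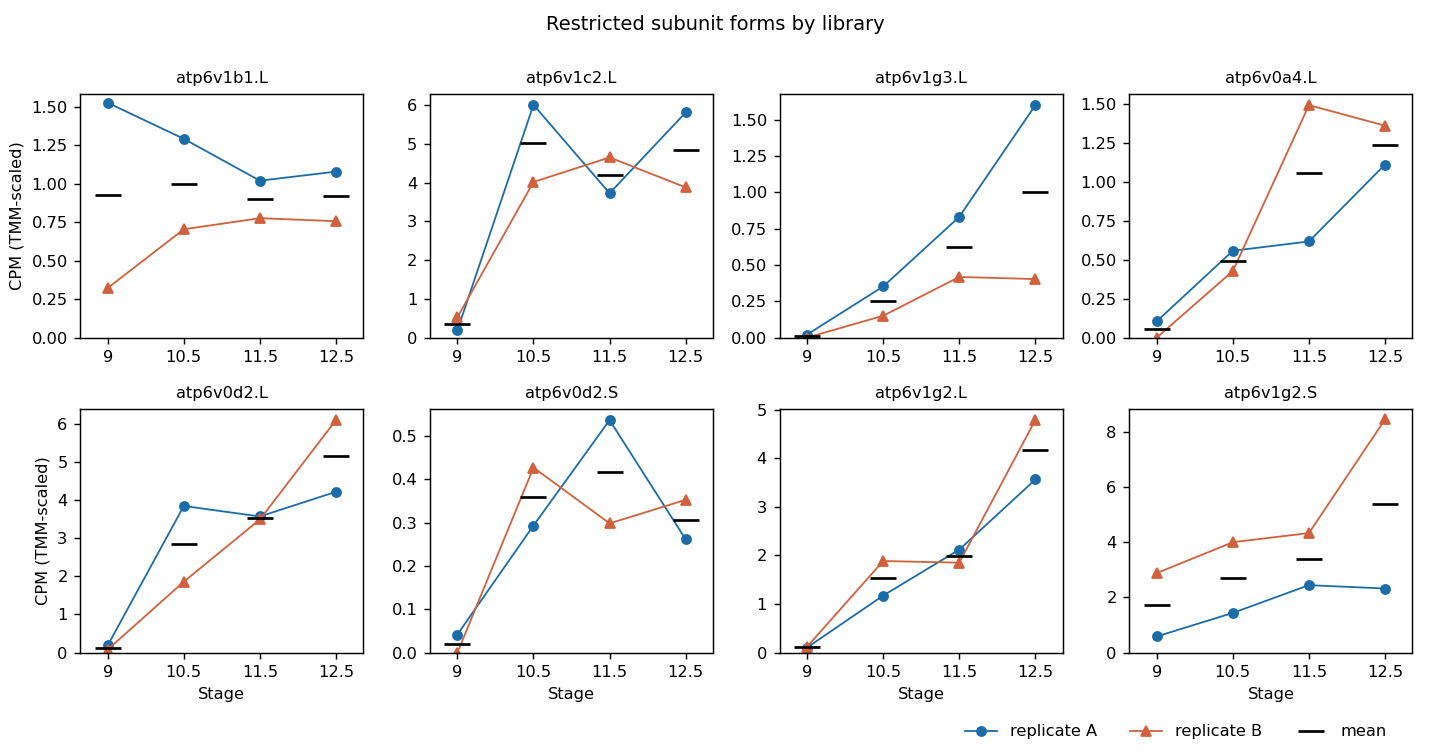
CPM (TMM-scaled) of 8 tested restricted subunit genes at the 4 stages, with circles for library A, triangles for library B and bars for the mean, each panel on its own axis from 0. All but atp6v1b1.L and atp6v1g2.S start close to 0 in both libraries at stage 9, and in atp6v1g2.S library B lies above A throughout.

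Together the 8 ionocyte forms made up 0.184% of the V-ATPase counts in A and 0.0794% in B at stage 9 (exact 95% intervals of 0.151% to 0.223% and 0.0587% to 0.105%). The shares were 0.841% and 0.508% at stage 10.5, then 0.679% and 0.741% at stage 11.5 and finally 0.939% and 0.809% at stage 12.5. All 6 later libraries lay above both stage 9 libraries. Gene atp6v1b1.L gave 73 of the 106 counts at stage 9 in A and 16 of the 49 in B. At stage 12.5, of 439 and 510 counts, atp6v1c2.L gave 178 and 154 and atp6v0d2.L 129 and 242. The summed share of the 4 other restricted forms also rose, from 0.078% and 0.248% at stage 9 to 0.385% and 0.858% at stage 12.5. Of their 180 and 541 counts at stage 12.5, atp6v1g2.L gave 109 and 190 and atp6v1g2.S 71 and 335. The rest came from atp6v0e2.S (0 and 4) and atp6ap1l.L (0 and 12). A rising share was thus not particular to the ionocyte forms. The widely expressed genes held at least 98.3% of the V-ATPase counts in every library. These are shares of counts without correction for length.

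The brain form G2, grouped apart from the ionocyte forms, also rose. Gene atp6v1g2.L had 0.10 and 0.12 CPM at stage 9, then 1.17 and 1.88 at stage 10.5, then 2.12 and 1.85 at stage 11.5 and finally 3.56 and 4.79 at stage 12.5 (log2 fold change from stage 9 to 12.5 of 5.17 ± 0.50, adjusted p = 9.4e-05). Its S copy atp6v1g2.S had 0.59 and 2.88 CPM at stage 9, then 1.44 and 3.99 at stage 10.5, then 2.44 and 4.33 at stage 11.5 and finally 2.32 and 8.44 at stage 12.5. Within each letter the stage 12.5 value exceeded that of stage 9, but the groups overlapped, and the gene was called only with the replicate block (log2 fold change 1.70, adjusted p = 0.00389, against 1.64 and 0.155 without it).

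The relation of each restricted form to its widely expressed partner was tested through log2 of the ratio of their CPM, summed over L and S copies with 0.5 CPM added to each. None of the 8 ratios passed an exact permutation test over the 2520 assignments of the libraries to stages after adjustment over the 8. It asked for any difference among the 4 stages, so its p-values do not test the changes from stage 9 to 12.5 given below. The design limits this test, since the smallest p it can give for 1 ratio is 0.00952, which a single ratio could not bring under the threshold after adjustment. The ratio of a4 to a1 reached that smallest p, with an adjusted p of 0.0762. It was -7.20 and -7.49 at stage 9, then -5.61 and -6.13 at stage 10.5, then -5.38 and -4.61 at stage 11.5 and finally -4.08 and -4.23 at stage 12.5, so that no stages overlapped. The change of 3.19 combines a rise of a4 with the fall of a1. The mean log2 ratio of d2 to d1 changed by 3.13 (p = 0.124, adjusted p = 0.248, exact permutation test), that of C2 to C1 by 1.89 (adjusted p = 0.248, exact permutation test), that of G2 to G1 by 1.86 (adjusted p = 0.29, exact permutation test) and that of G3 to G1 by 1.16 (adjusted p = 0.533, exact permutation test). The ratio of B1 to B2 differed by -0.06 (adjusted p = 0.981, exact permutation test). The ratios that involve atp6v0e2 and atp6ap1l rest on at most 10 and 12 counts per library and are set mainly by the added 0.5 CPM. At stage 9 each copy of a4, d2, C2 and G3 also had a mean under 0.5 CPM. The size of the changes printed for these ratios therefore depends on the added 0.5 CPM and is not read as their true size. For G3 to G1 the change was 1.16, while the fits gave log2 fold changes of 6.21 for atp6v1g3.L and 0.36 for atp6v1g1.L.

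The accessory proteins, which bind V0 and take part in assembling and placing the pump, moved in different directions. Gene atp6ap2.L encodes the prorenin receptor, of which a fragment sits in the pump. It had 41.1 and 49.0 CPM at stage 9, then 103 and 123 at stage 10.5, then 131 and 136 at stage 11.5 and finally 194 and 221 at stage 12.5, with no overlap between any stages. The mean rose 4.6-fold from 45.0 ± 5.57 to 207 ± 19.1 CPM (SD, n = 2; log2 fold change 2.20 ± 0.16, adjusted p = 2.66e-05), and the step from stage 11.5 was called with the replicate block (0.63 ± 0.11, adjusted p = 0.0253). Its S copy atp6ap2.S went from 20.1 and 14.7 to 24.5 and 27.5 CPM and was called only with the block (log2 fold change 0.60, adjusted p = 0.0172, against 0.58 and 0.0525 without it).

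The genes for Ac45, the accessory protein that caps V0 and assists its assembly, split by copy. Gene atp6ap1.1.S had 0 and 0.34 CPM at stage 9, then 2.64 and 3.67 at stage 10.5, then 5.47 and 5.01 at stage 11.5 and finally 9.41 and 13.9 at stage 12.5 (log2 fold change from stage 9 to 12.5 of 6.05 ± 1.06, adjusted p = 0.00182). Its stage 9 level rests on 17 counts in library B and 0 in A. Gene atp6ap1.2.L fell from 8.38 and 7.41 CPM at stage 9 to 1.91 and 2.76 at stage 10.5 and then held at 2.12 and 2.82 by stage 12.5 (log2 fold change -1.67 ± 0.34, adjusted p = 0.00398). The copy atp6ap1.2.S had between 44.3 and 57.6 CPM in all 8 libraries and was not called at any step. The related atp6ap1l.L had at most 12 counts in a library.

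**Figure D4:**
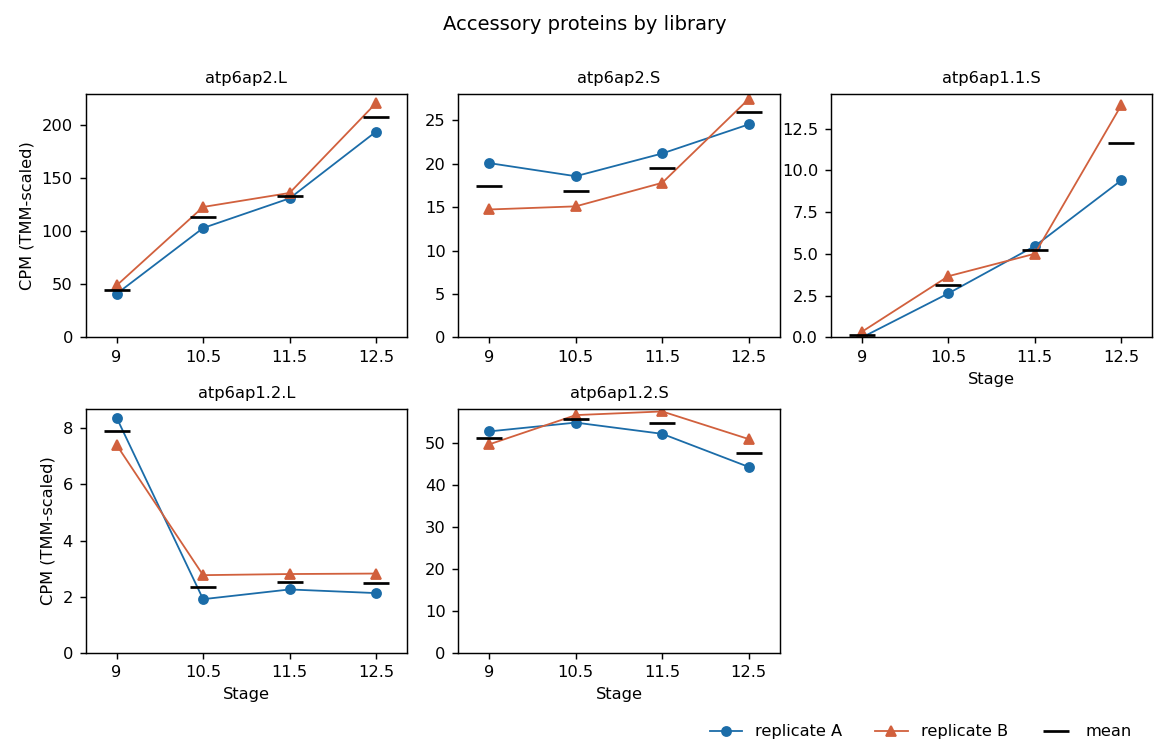
CPM (TMM-scaled) of the 5 tested accessory protein genes at the 4 stages, with circles for library A, triangles for library B and bars for the mean, each panel on its own axis from 0. Panel atp6ap2.L climbs from 41.1 and 49.0 to 194 and 221 CPM, atp6ap1.1.S rises from 0 and 0.34, and atp6ap1.2.L drops to below 3 CPM by stage 10.5.

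The L and S copies of a subunit did not always change together. The log2 ratio of the L copy to the S copy, after 1 CPM was added to either, differed among stages for 5 of the 11 V-ATPase pairs with both copies tested (limma with trend, adjusted over 4784 pairs), where 42.9% of all pairs were called. The share among the V-ATPase pairs is close to this background. The ratio of atp6v1d went from -2.09 and -2.31 at stage 9 to 0.77 and -0.07 at stage 12.5 (adjusted p = 0.00378) and that of atp6ap2 from 1.00 and 1.67 to 2.93 and 2.96 (adjusted p = 0.0151). In both pairs the ratio moved towards L. The ratio of atp6v0d2 was also called, from 0.19 and 0.11 to 2.05 and 2.39 (adjusted p = 0.00931), but both copies were under 0.2 CPM at stage 9, where the added 1 CPM sets the ratio close to 0. The log2 fold changes of 5.23 ± 0.60 for atp6v0d2.L and 3.71 ± 1.13 for atp6v0d2.S overlap within their errors, so no shift between the d2 copies is read from it. The ratio of atp6v0a1 moved from -2.01 and -2.25 to -0.86 and -0.96 (adjusted p = 0.00452), through the larger fall of the S copy. The ratio of atp6ap1.2 moved towards S, from -2.52 and -2.59 to -3.86 and -3.77 (adjusted p = 0.00272). The call on atp6ap2 was lost without stage 9 replicate A (adjusted p = 0.0831) and that on atp6v0d2 without stage 9 replicate B (adjusted p = 0.0544). With the replicate block atp6v1g2 was called too (adjusted p = 0.0209). The other 5 pairs, atp6v0c, atp6v1a, atp6v1c1, atp6v1e1 and atp6v1h, changed by between -0.19 and 0.44 from stage 9 to 12.5 and were not called.

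**Figure D5:**
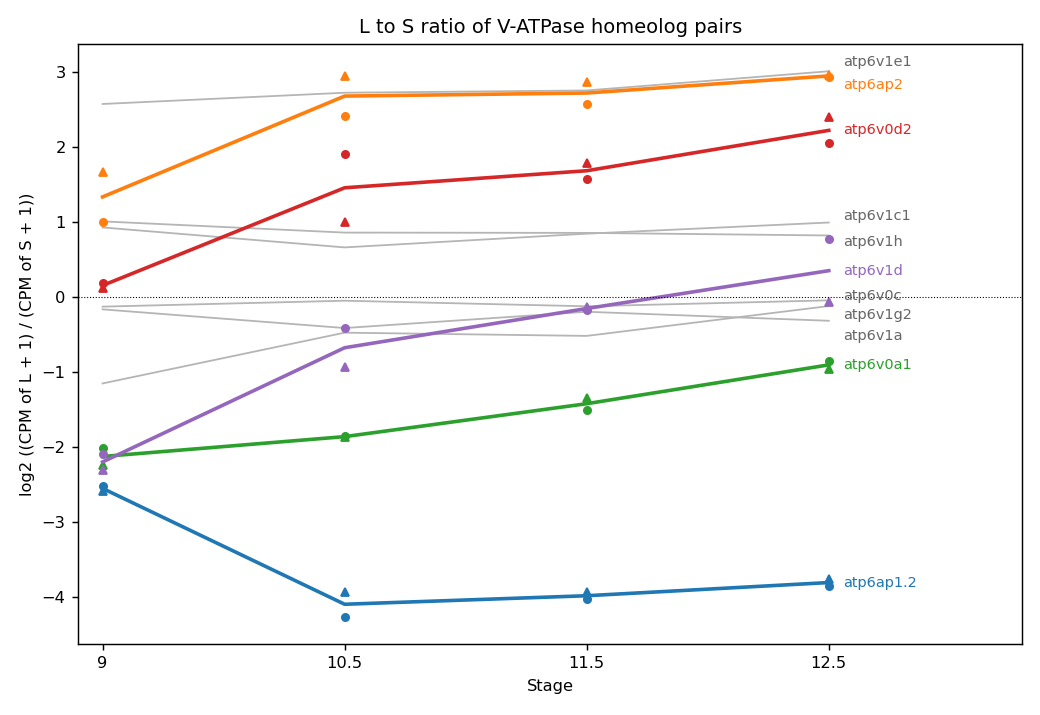
Log2 ratio of the L copy to the S copy (CPM plus 1) of the 11 V-ATPase homeolog pairs across the 4 stages, with lines for the stage means. The 5 pairs called are coloured with circles for library A and triangles for library B. The mean of atp6v1d goes from -2.20 at stage 9 to 0.35 at stage 12.5, where A is at 0.77 and B at -0.07. The uncalled pairs in grey change by between -0.19 and 0.44, except atp6v1g2 with 1.03.

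Some of the spread within stages followed the letter. Among the 33 tested genes, 11 differed in the same direction between B and A at all 4 stages (33.3%), 5 with B higher and 6 with A higher, against 33.7% of all genes tested. The largest such difference was that of atp6v1g2.S, in which log2 of B over A, with 0.5 CPM added, was 1.64, 1.21, 0.71 and 1.66 at the successive stages.

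Genes that work with the pump were followed as lists over the same period, in which 31.9% of all genes were called higher and 28.9% lower. The membrane protein Rnasek, found beside V0, is listed in 2 copies, and both rose from stage 9 to 12.5. The copy rnasek.L went from 24.6 and 16.4 to 120 and 64.1 CPM (log2 fold change 2.17 ± 0.38, adjusted p = 0.00195), and rnasek.S lost its call on library sizes without TMM factors. Of the 3 tested genes for assembly of V0 in the endoplasmic reticulum, vma21.L rose from 22.8 and 26.1 to 43.8 and 43.7 CPM (log2 fold change 0.84 ± 0.15, adjusted p = 0.0018), tmem199.L fell by 1.19 ± 0.37 on the log2 scale (adjusted p = 0.0259) and 1 was not called. Genes for the complex that puts V1 back onto V0 (the RAVE complex and rabconnectin) included 0 that rose and 3 that fell of 4 tested. The rabconnectin gene wdr7.S went from 27.5 and 34.3 to 8.30 and 10.96 CPM (log2 fold change -1.68 ± 0.25, adjusted p = 0.000803). Among 3 tested TLDc genes, whose proteins bind V1, oxr1.L rose (log2 fold change 1.04 ± 0.19, adjusted p = 0.00246) and 2 fell, with ncoa7.L going from 48.5 and 54.9 to 6.80 and 8.67 CPM (-2.74 ± 0.23, adjusted p = 5.3e-05).

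On the lysosome the pump meets the nutrient-sensing machinery. Of the 13 genes for Ragulator, Rag GTPases and Slc38a9, 1 rose and 6 fell, beside 31.9% higher and 28.9% lower over all genes, with a median log2 fold change of -0.86 against 0.13 over all genes. Gene lamtor5.S rose from 48.9 and 33.1 to 96.4 and 74.0 CPM (log2 fold change 1.06 ± 0.31, adjusted p = 0.0192), and slc38a9.S fell from 30.0 and 13.4 to 4.05 and 4.13 CPM (-2.40 ± 0.57, adjusted p = 0.00778). On library sizes without TMM factors 0 rose and 7 fell. The MiT/TFE factors, which activate V-ATPase and lysosomal genes in mammals, fell in all 3 tested copies, mitf.L, tfeb.S and tfe3.S, by between 1.79 and 3.68 on the log2 scale. The largest fall, that of mitf.L, was from 82 and 26 counts to 2 and 4 (adjusted p = 0.0216). Lysosomal proteins comprised 5 that rose and 10 that fell of 27 tested, with a median log2 fold change of -0.24. The split was 2 and 14 without TMM factors and 9 and 12 with the replicate block (36.3% higher and 32.8% lower over all genes). Their summed level was 3138 and 3400 CPM at stage 9 and 3757 and 3592 CPM at stage 12.5, so both later libraries lay above both earlier ones on TMM-scaled sizes. This order does not hold without the TMM factors, which were 1.09 and 1.09 at stage 9 and 0.818 and 0.932 at stage 12.5. Among the lysosomal genes the calcium channel gene mcoln1.L rose from 49.99 and 67.0 to 147 and 119 CPM (log2 fold change 1.18 ± 0.20, adjusted p = 0.00144), and the membrane protein gene lamp2.L fell from 20.6 and 27.7 to 1.34 and 1.59 CPM (-4.04 ± 0.41, adjusted p = 0.000118).

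Counts for markers of the cell types, from stage 9 to 12.5, stand beside 31.9% higher and 28.9% lower over all genes. A marker near 0 at stage 9 could pass the filter only through later libraries, so these counts describe the lists and lend no support. Among these markers, the ionocyte factors rose in 4 of 6 IDs and fell in none on TMM-scaled sizes (1 fell on library sizes alone). Gene foxi1.S had 1.25 and 0.36 CPM at stage 9, then 28.8 and 29.3 at stage 10.5, then 35.6 and 56.7 at stage 11.5 and finally 98.6 and 69.5 at stage 12.5 (log2 fold change from stage 9 to 12.5 of 6.70 ± 0.57, adjusted p = 5.22e-05). Of 7 IDs for ionocyte transport partners 3 rose and 2 fell. The carbonic anhydrase gene ca2.L had 0 counts in both stage 9 libraries and 45 and 6 at stage 12.5, while ca12.L, another carbonic anhydrase, fell from 44.5 and 71.3 to 9.44 and 13.0 CPM (log2 fold change -2.37 ± 0.32, adjusted p = 0.000475). Multiciliated cell markers rose in 8 of 10 tested IDs, with the largest change in mcidas.L (log2 fold change 7.57 ± 0.65, adjusted p = 5.6e-05). Secretory cell markers rose in 7 of 10 and fell in 1, with otog.L at 11.2 ± 0.81 (adjusted p = 2.8e-05) and foxa1.L at -2.24 ± 0.61 (adjusted p = 0.0139). Mesoderm and endoderm markers rose in 0 of 10 and fell in 5, with the largest fall in mix1.L (log2 fold change -4.54 ± 0.89, adjusted p = 0.00319). With the replicate block 9 multiciliated and 8 secretory markers rose and 6 mesoderm and endoderm markers fell (36.3% higher and 32.8% lower over all genes).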

How the data were processed

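Poly-A selected RNA of the 8 explant libraries was sequenced as read pairs without strand information, per the labels' protocols. The submitters' processing notes name FastQC 0.11.5, STAR 2.6.0b-1, featureCounts 1.6.3 and DESeq2 1.22.1. The genome build and annotation are not given in the sources used here, so no coordinates are printed. The authors deposited raw counts per gene ID and library with no normalization. They also deposited tables of successive stages with log2 fold changes, p-values and adjusted p-values, which are quoted only as theirs.

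Tests on the counts used edgeR 4.0.16 in R 4.3.3. After filterByExpr by stage and TMM scaling (factors 0.818 to 1.12), glmQLFit and glmQLFTest were run on all 8 libraries with stage alone as a factor (4 residual degrees of freedom). SEs were derived from the F statistic. Intervals and floors cover counting error only. Homeolog ratios were tested with limma 3.58.1 and ratios of subunit forms with exact permutation tests in Python 3.11.15, both for any difference among the 4 stages. Scripts were tested on simulated counts. Deviations from the stage mean correlated between libraries of the same letter (Pearson r across genes from 0.374 to 0.597 at 6 pairs of stages), so the letters pair the libraries. The fit by stage leaves this pairing out, and its spread includes differences between letters. The biological coefficient of variation was 0.362 by stage and 0.198 with the letter as a block. The fit with the block is given beside the results where it changed a call on a V-ATPase gene or a count of a list.

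Named genes were every restricted form with its partner, the largest called change in each sector, direction and comparison, the widely expressed gene with the highest CPM per sector, the largest change per list and the homeolog pairs called. The genes under LOC symbols and the other members named were added after their values were seen. The V-ATPase genes, the 12 lists and their classes were chosen with earlier results of these data known. Alternatives were RLE size factors, library size alone, DESeq2 1.42.0, other filters, a minimum log2 fold change of 1, other pseudocounts and leaving out each library.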

Additional observations from a re-analysis of the deposited data

How the results depend on the processing

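The count of V-ATPase genes called between stages 9 and 10.5 ranged from 9 to 15 when a library was left out, against 16 with all 8, and stayed within 1.5 times of 16 under the alternatives that kept all libraries. Between stages 11.5 and 12.5 the count was 0 by stage, 3 with the replicate block, 3 with DESeq2 and 1 with no filter on low counts. Without the filter, 605 of all 43361 genes were called at that step. The counts for stages 10.5 to 11.5, stages 9 to 12.5 and any difference among stages stayed within 1.5 times of their values under each alternative tried, and so did the counts of ratios called. The block changed no call on a V-ATPase gene in the 4 comparisons of stages, the test of any difference or the homeolog ratios beyond those given beside the results.

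The log2 fold changes from stage 9 to 12.5 that changed sign were all of genes not called on TMM-scaled sizes by stage, and the cause was not tested. On library sizes alone they were -0.32 for atp6v0c.L (called there, adjusted p = 0.0285), -0.27 for atp6v0d1.L, -0.23 for atp6v1a.L, -0.0902 for atp6v1a.S, -0.13 for atp6v1b2.S, -0.31 for atp6v1h.L and -0.11 for atp6v1h.S. With no filter they were -0.0268 for atp6v0c.L and -0.0244 for atp6v1h.L, and with at least 50 counts required in 2 libraries 0.0169 for atp6ap1.2.S and 0.0371 for atp6v0c.S. For atp6v1b1.L the value was 0.21 with the replicate block, 0.0349 with RLE size factors and 0.0351 with DESeq2. Leaving out a library gave ranges of -0.0491 to 0.0498 for atp6v0c.L, -0.26 to 0.35 for atp6v0d1.L, -0.763 to 1.48 for atp6v1b1.L, -0.11 to 0.77 for atp6v1e1.S and -0.0592 to 0.064 for atp6v1h.L. The ionocyte forms a4, B1 and G3 had under 75 counts per library.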
